A study of Mus musculus with 6 samples.

Results

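Death receptor signalling and its caspase were followed through 9 genes in mouse T-cell acute lymphoblastic leukaemia: the ligand gene Fasl, the receptor genes Fas, Tnfrsf1a and Tnfrsf1b, the adaptor and kinase genes Fadd and Ripk1, the initiator caspase gene Casp8, and the caspase inhibitor genes Cflar and Xiap. The genes were chosen by name, with earlier results of these data known. A probe set (a group of short probes against one transcript) was taken as a member where its only gene symbol in the platform annotation was one of these. Ripk1 was not analysed here, so 8 genes with 21 probe sets were measured, among 18193 genes with 34945 probe sets in all. Xiap had 7 probe sets, Cflar 5, Fasl, Fadd and Tnfrsf1b 2 each, and Fas, Tnfrsf1a and Casp8 1 each.

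The leukaemias were labelled Notch1[delta]E mycGFP, so cells of both groups carry a constitutively active NOTCH1 and the mycGFP allele, whose GFP marks MYC. Spleen cells positive for CD25, the interleukin 2 receptor alpha chain, came from C57BL/6 mice listed at 12 weeks of age, 4 weeks after transplantation into congenic recipients, and were sorted by mCherry and GFP; the MycGFP negative group has 3 arrays, as has the MycGFP positive one. The design text gives 3 independent leukaemias, though no label ties an array to one of them, and the labels name neither the promoter driving the transgene nor whether animals were pooled. The comparison asks how transcripts differ between cells of the same leukaemia model with and without the GFP signal.

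A death receptor is a membrane protein whose intracellular death domain recruits adaptors when its ligand binds. FAS ligand engages FAS, FADD joins the receptor and gathers caspase 8, and active caspase 8 cuts effector caspases or the protein BID, which passes the signal to mitochondria. The product of Cflar, c-FLIP, resembles caspase 8 without its protease activity and competes for FADD, and XIAP binds and blocks caspases further down. TNF receptor 1, encoded by Tnfrsf1a, has a death domain too but first builds a complex that activates NF-kB, while TNF receptor 2, encoded by Tnfrsf1b, has none. In T cells FAS is best known for removing activated cells and c-FLIP for protecting them.

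The deposited values were intensities on a linear scale, with array medians of 30.5 to 32.7. A level near these medians may be background, since no detection calls were used, and levels of different probe sets cannot be compared. Myc itself was 2.58-fold higher in MycGFP positive cells (limma, adjusted p = 0.0299), with intensities of 801, 1135 and 1303 on the negative and 2628, 3390 and 2274 on the positive arrays, given in the order of array numbers 1, 2 and 3 here and throughout. Of 9 measured T lineage markers, all were above the array median on every array and none was called. In MycGFP positive cells 8 of the 9 had a lower mean log2 value, and in 3 the negative arrays lay above the positive ones. Their summed intensity was 64955 to 68795 in the negative and 54656 to 63705 in the positive group, without overlap. Of 33 markers of B, myeloid, NK, erythroid, dendritic, endothelial and stromal cells, 0 were called, 2 and 1 of the NK and erythroid lists having an unadjusted p under 0.05, as had 1 of the endothelial and stromal list. In 7 of the 33 the negative and in 1 the positive arrays lay above the others. Of all 18193 genes, the negative arrays lay above in 2029 and the positive in 3087, together 28.1%. The unadjusted limma p was under 0.05 for 3973 of all 18193 genes. With the array number as a block, limma called 4 of the 33, all lower in MycGFP positive cells. These were Klrd1, an NK receptor gene (limma, adjusted p = 0.0393, and 0.0901 without the block), and Pecam1 of the endothelial and stromal list (0.0419 and 0.0861). The others were the B lineage gene Cd79b (limma, adjusted p = 0.0444, and 0.434 without the block) and the neutrophil gene S100a9 (0.047 and 0.736). Klrd1 read 317, 101 and 255 on the negative and 92.5, 23.0 and 21.2 on the positive arrays, and Pecam1 669, 528 and 358 against 305, 254 and 220.02, so that both were separated in the same direction as Fas and Tnfrsf1a; their part in those differences was not tested. The summed intensities of the NK list, mostly Gzma, were 5144 to 5728 in the negative and 6135 to 8107 in the positive group. Those of the endothelial and stromal list, mostly Pecam1, were 416 to 945 and 271 to 368, and neither list overlapped between groups. In the latter list Col1a1 read 244 on negative array 1, and 3 of the 5 measured markers, Cdh5, Col1a2 and Col3a1, lay below the median on every array. The dendritic sums were 78.4 to 93.0 and 72.4 to 78.7, the B lineage sums 213 to 757 and 122 to 475 and the erythroid sums 65.3 to 382 and 123 to 359, all overlapping. The summed intensity of the 10 myeloid markers reached from 281 to 10643 in the negative group and from 217 to 2724 in the positive group, highest on the arrays numbered 2 of both groups. S100a8, a neutrophil gene, read 224, 4467 and 26.2 on the negative and 364, 871 and 42.7 on the positive arrays. The myeloid markers Itgam, Cd14 and Adgre1 lay below the array medians on all 6 arrays.

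The receptor genes Fas and Tnfrsf1a fell in MycGFP positive cells, Fas 5.03-fold and Tnfrsf1a 2.09-fold. One of 5 probe sets of Cflar also fell, 1.80-fold, and the brightest one just missed the threshold. No probe set of Casp8, Fadd, Fasl, Tnfrsf1b or Xiap passed the test, and no member rose. Calls here and throughout mean a two-sided limma p that stays under 0.05 after Benjamini-Hochberg adjustment across all 34945 probe sets. Of the 21 member probe sets, 3 were called, all lower, where 2.16% of all probe sets were called lower, 4.76% higher and 6.92% in either direction. With each gene read by its brightest probe set (the highest mean log2 value over the 6 arrays), 2 of the 8 genes were called lower, against 1.63% of all genes. As the members were chosen with earlier results of these data known, these shares are only a description, and an excess among the members was not tested. The groups did not overlap in 3 of the 8 genes, each with the negative arrays above. Among all genes this held for 28.1% in either direction, and for 2029 of 18193 with the negative arrays above. The median log2 difference, MycGFP positive minus negative, was -0.16 over the 21 member probe sets and 0.01 over all probe sets. The negative arrays lay wholly above the positive ones in 6 member probe sets and below them in 1, and groups did not overlap in 28.6% of all probe sets. In bulk RNA of this kind, fewer cells expressing a gene and less RNA in each cell cannot be told apart.

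**Figure D1:**
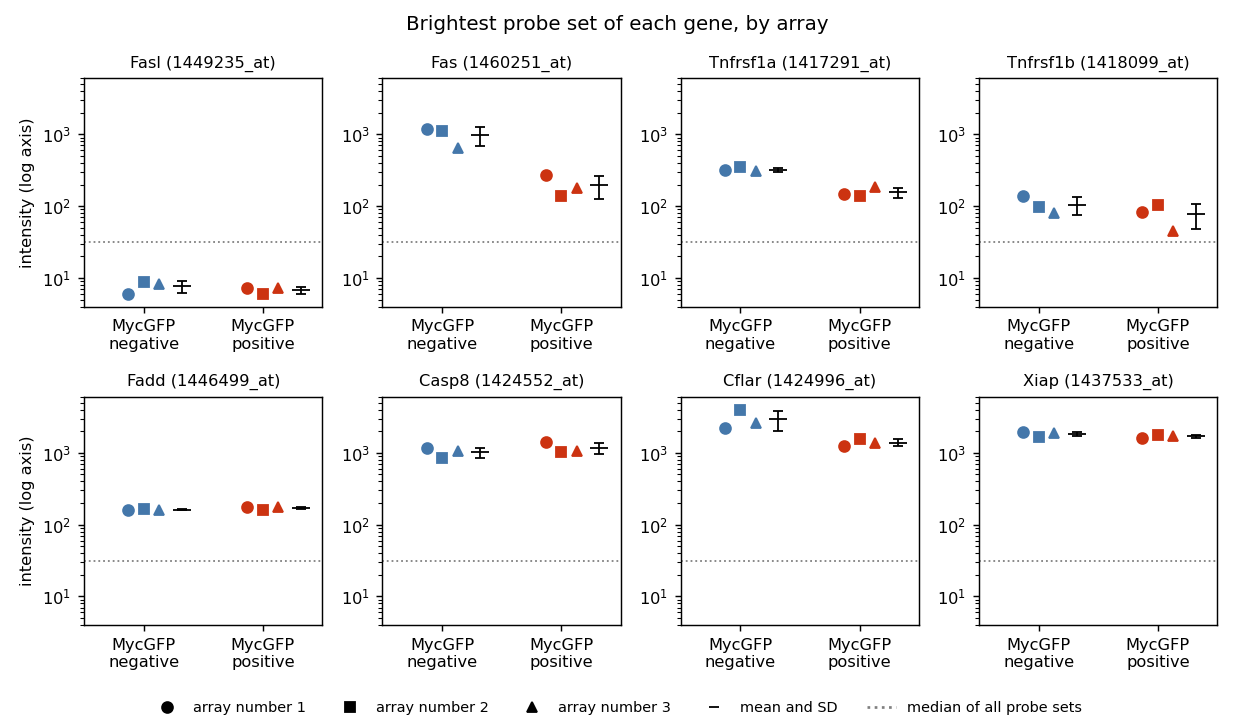
Intensity (log axis) of the brightest probe set of each of the 8 measured genes on the 3 MycGFP negative (blue) and 3 MycGFP positive (red) arrays, with symbols for the array number, bars for mean and SD, and a dotted line at the median of all probe sets. Fas, Tnfrsf1a and Cflar show no overlap between the groups, the other 5 genes overlap, and Fasl lies below the dotted line on every array.

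Fas encodes the receptor for FAS ligand. Its probe set 1460251_at read 1167, 1122 and 655 on the negative arrays and 274, 139 and 178 on the positive arrays. The groups did not overlap, the lowest negative array, number 3, lying well above the highest positive array, number 1. The means were 981 ± 284 and 196.7 ± 69.6 (SD, n = 3). On the log2 scale this is a difference of -2.33 ± 0.33 (SE; limma, adjusted p = 0.0195), with a 95% interval from -3.14 to -1.52. Among the 18193 genes read by their brightest probe sets, Fas had the 60th lowest difference. Between arrays of the same number the differences were -2.09, -3.02 and -1.88, so all 3 pairs went down and the pair numbered 2 furthest.

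The window of RefSeq promoter sequence for Fas is shown because it holds the hexamer CACGTG, the E-box to which MYC and its partners bind, and the one for Tnfrsf1a is shown beside it because that gene fell as well and its window holds none. Both are on the plus strand of GRCm38.p6, cut off before the first annotated base of the gene, with the E-box and the GC box GGGCGG in capitals, which do not overlap. The Fas stretch is chr19:34290409-34290646 and the Tnfrsf1a stretch chr6:125349473-125349722.
Fas: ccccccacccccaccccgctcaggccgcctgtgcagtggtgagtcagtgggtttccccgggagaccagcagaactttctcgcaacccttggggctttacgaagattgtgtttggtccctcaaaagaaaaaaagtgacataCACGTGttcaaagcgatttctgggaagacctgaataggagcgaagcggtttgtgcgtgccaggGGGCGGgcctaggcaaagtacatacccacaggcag
Tnfrsf1a: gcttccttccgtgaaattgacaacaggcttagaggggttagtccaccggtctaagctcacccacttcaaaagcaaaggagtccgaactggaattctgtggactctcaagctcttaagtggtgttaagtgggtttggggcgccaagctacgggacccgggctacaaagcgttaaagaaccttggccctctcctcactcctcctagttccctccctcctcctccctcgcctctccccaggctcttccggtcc
Windows of 300 bases, from 250 before to 50 after a promoter start, were searched on both strands for the E-box, the GC box and a kappa B form. That form begins with GGG and, after any 2 bases, ends in TTTCC. The promoter start need not be the gene's first annotated base. Only 70 bases of the Cflar window and 238 of the Fas window lie before that base. All 9 genes named at the outset had at least 1 window. Fas had 1 match of CACGTG and no other member had any, where 7.15% of all 32851 windows hold it. The kappa B form was found in no member window and in 1.63% of all windows. GGGCGG was found in 35.7% of all windows, and among the members in those of Fas, Fasl, Fadd, Ripk1, Tnfrsf1b and Xiap but not in those of Tnfrsf1a, Cflar or Casp8. The window of Fas holds 2 matches of GGGCGG, of which the stretch printed shows 1. A match describes the letters of the window and does not show binding.

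Tnfrsf1a encodes TNF receptor 1, the form of the TNF receptor with a death domain. Probe set 1417291_at read 314, 347 and 309 on the negative arrays and 146, 137 and 184 on the positive arrays. The 3 negative values lay close together and well apart from the positive ones. The means were 323 ± 20.4 and 156 ± 25.0 (SD, n = 3), a log2 difference of -1.06 ± 0.16 (SE; limma, adjusted p = 0.0211; 95% interval -1.45 to -0.68). The 3 same-number differences were -1.11, -1.34 and -0.75.

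Both receptors kept their direction with any array left out, but not always their calls. That of Fas was lost without negative array 2 (limma, adjusted p = 0.0701), positive array 2 (0.0709) or positive array 3 (0.071), with log2 differences of -2.21, -2.11 and -2.29, and over all alternatives its adjusted p was 0.0118 to 0.207. That of Tnfrsf1a was lost without negative array 2 (limma, adjusted p = 0.0735), positive array 1 (0.0661) or positive array 2 (0.0815), with log2 differences of -1.01, -1.02 and -0.98, over a range of 0.0159 to 0.224. Without positive array 2, limma called 0 of the 34945 probe sets, although the unadjusted p was under 0.05 for 4058 with higher and 2330 with lower values. The call of Myc was lost too, at adjusted p of 0.0725 to 0.0989, without negative array 2 or any positive array.

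Tnfrsf1b encodes TNF receptor 2, which is found mainly on lymphoid and myeloid cells. Its brighter probe set, 1418099_at, read 138, 98.1 and 79.2 on the negative and 84.0, 102 and 45.7 on the positive arrays. The groups overlapped, the positive array numbered 2 lying above 2 of the negative ones. The log2 difference was -0.48 (limma, adjusted p = 0.509), and its 95% interval of -1.34 to 0.38 includes both no difference and one as large as that of Tnfrsf1a. The other probe set, 1448951_at, lay just above the array medians, at 37.5 to 38.2 on the negative and 33.4 to 42.1 on the positive arrays, with a difference of 0.01 (95% interval -0.33 to 0.34) whose sign turned when each array was centred on its median.

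Fasl encodes FAS ligand, a membrane protein of activated T cells and NK cells. Its 2 probe sets read 5.84 to 8.67 on the negative and 5.39 to 7.34 on the positive arrays, below the median on all 6 arrays. No fold is given for these levels, and a difference was not detectable at this signal (limma, adjusted p = 0.716 and 0.524). In these arrays the receptor gene Fas was thus measured well above the median in both groups and its ligand gene in neither.

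Fadd encodes the adaptor that links FAS to caspase 8. Its brighter probe set, 1446499_at, was nearly flat, at 160.3, 164.7 and 159.5 on the negative and 174.1, 162.2 and 174.5 on the positive arrays. The log2 difference was 0.08, with a 95% interval of -0.21 to 0.36 (limma, adjusted p = 0.783). The other probe set, 1416888_at, read 55.8, 146 and 71.1 on the negative and 137, 150.02 and 107 on the positive arrays, so negative array 2 was as high as the positive ones. Its difference of 0.64 did not pass either (95% interval -0.25 to 1.54; limma, adjusted p = 0.382), and for Fadd the probe sets differ in how wide a change they leave possible.

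Casp8 encodes the initiator caspase of the receptor complex. Probe set 1424552_at read 1150, 838 and 1059 on the negative and 1411, 1037 and 1054 on the positive arrays, with the groups overlapping. The log2 difference was 0.20 (limma, adjusted p = 0.638), and the 95% interval of -0.28 to 0.67 leaves out a fall as large as that of Fas or Tnfrsf1a.

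Cflar encodes c-FLIP, the competitor of caspase 8. Its brightest probe set, 1424996_at, read 2249, 3948 and 2569 on the negative and 1249, 1548 and 1355 on the positive arrays, so the groups did not overlap. The means were 2922 ± 903 and 1384 ± 152 (SD, n = 3). On the log2 scale they differed by -1.04 ± 0.24 (SE; 95% interval -1.62 to -0.46), at a limma adjusted p of 0.0555, and of 0.0409 with the array number as a block, where it was called. Probe set 1425686_at read 2115, 2967 and 2288 against 1179, 1492 and 1395 and was called, at a log2 difference of -0.85 ± 0.18 (SE; limma, adjusted p = 0.0479). Probe set 1425687_at, at 506, 721 and 584 against 368, 435 and 421, did not overlap between groups either but was not called, at -0.55 (95% interval -0.98 to -0.13; limma, adjusted p = 0.124).

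The remaining Cflar probe sets were dimmer, and neither was called. Probe set 1453482_at read 82.2, 73.2 and 86.2 against 71.8, 54.7 and 71.2, with all negative values above the positive ones, at a log2 difference of -0.30 (limma, adjusted p = 0.359). Probe set 1449317_at read 137, 95.7 and 35.4 against 183, 84.2 and 76.6, with overlapping groups and a difference of 0.45 (95% interval -0.95 to 1.85; limma, adjusted p = 0.73). Thus 4 of the 5 probe sets had a negative difference and 1 a positive one, and the mean of all 5 gave -0.46 (adjusted p = 0.139). Cflar has several splice forms, but which form each probe set reads was not analysed here.

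In the 3 brighter Cflar probe sets the arrays numbered 2 were the highest of each group. The same held for the sum of the myeloid markers, though not for each marker. The part of myeloid cells in these Cflar values was not tested. Without both arrays numbered 2, an alternative added after the data were seen, the log2 differences of 1424996_at and 1425686_at were -0.89 and -0.78 with 2 arrays a group (limma, adjusted p = 0.214 and 0.242), and limma called 0 probe sets of the whole array, while 3235 with higher and 1804 with lower values had an unadjusted p under 0.05. The differences of Fas and Tnfrsf1a were -1.99 and -0.93 there. The call of 1425686_at was lost without any one of the 6 arrays, at adjusted p of 0.0578 to 0.127, with log2 differences of -0.95 to -0.71.

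In the RefSeq table of GRCm38.p6, Cflar and Casp8 lie on chromosome 1 with a single gene between them, the long noncoding Gm39646. The difference of the brightest Cflar probe set lay below that of Casp8 in every same-number pair. The log2 difference of Cflar was -0.85, -1.35 and -0.92 in pairs 1, 2 and 3, and that of Casp8 0.29, 0.31 and -0.01. Cflar minus Casp8 was thus -1.14, -1.66 and -0.92, a description of a pair of genes compared after their values were seen.

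**Figure D2:**
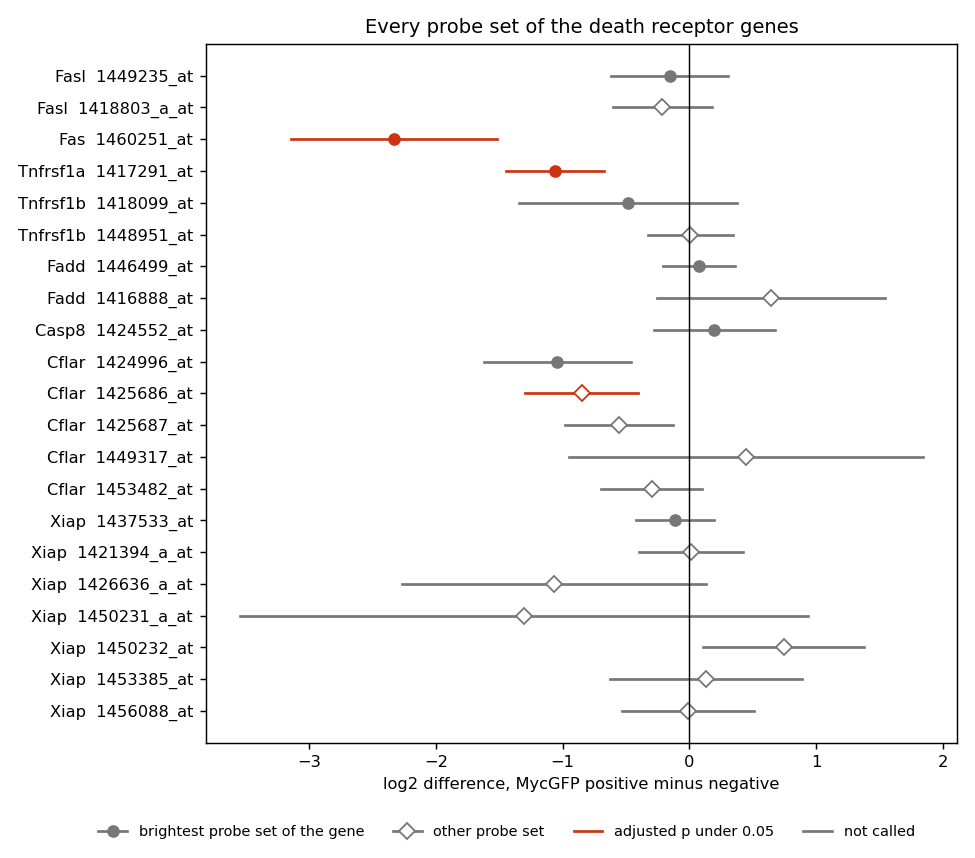
Log2 difference, MycGFP positive minus negative, of all 21 member probe sets with its 95% interval from limma; filled circles are the brightest probe set of a gene, open diamonds the others, and red marks an adjusted p under 0.05. Fas lies farthest to the left at -2.33, followed among the called probe sets by Tnfrsf1a at -1.06 and Cflar 1425686_at at -0.85, while the widest interval belongs to Xiap 1450231_a_at.

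Xiap encodes the X-linked inhibitor of caspases 3, 7 and 9. Its brightest probe set, 1437533_at, read 1928, 1679 and 1901 on the negative and 1614, 1748 and 1721 on the positive arrays. The groups overlapped, and the log2 difference was -0.11 with a 95% interval of -0.42 to 0.20 (limma, adjusted p = 0.685). Probe set 1456088_at, at 699, 589 and 715 against 498, 718 and 807, likewise gave a difference near 0, of -0.01 (95% interval -0.53 to 0.51).

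The other 5 Xiap probe sets did not agree among themselves. Negative array 1 stood out in 1426636_a_at, with 647 beside 292 and 162 on the other negative arrays and 121, 179 and 153 on the positive ones, and again in 1450231_a_at, with 226 beside values of 14.5 to 26.6 on all the other arrays. Their log2 differences of -1.07 and -1.31 were not called (limma, adjusted p = 0.272 and 0.489) and shrank to -0.54 and -0.19 without that array. Probe set 1450232_at read 14.0, 12.0 and 15.4 against 33.7, 18.5 and 19.5, below or about at the array median, with all positive values above the negative ones and a difference of 0.74 (limma, adjusted p = 0.159). Probe sets 1421394_a_at and 1453385_at differed by 0.01 and 0.13 and overlapped. Of the 7, 3 had a positive and 4 a negative difference, and none was called.

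**Figure D3:**
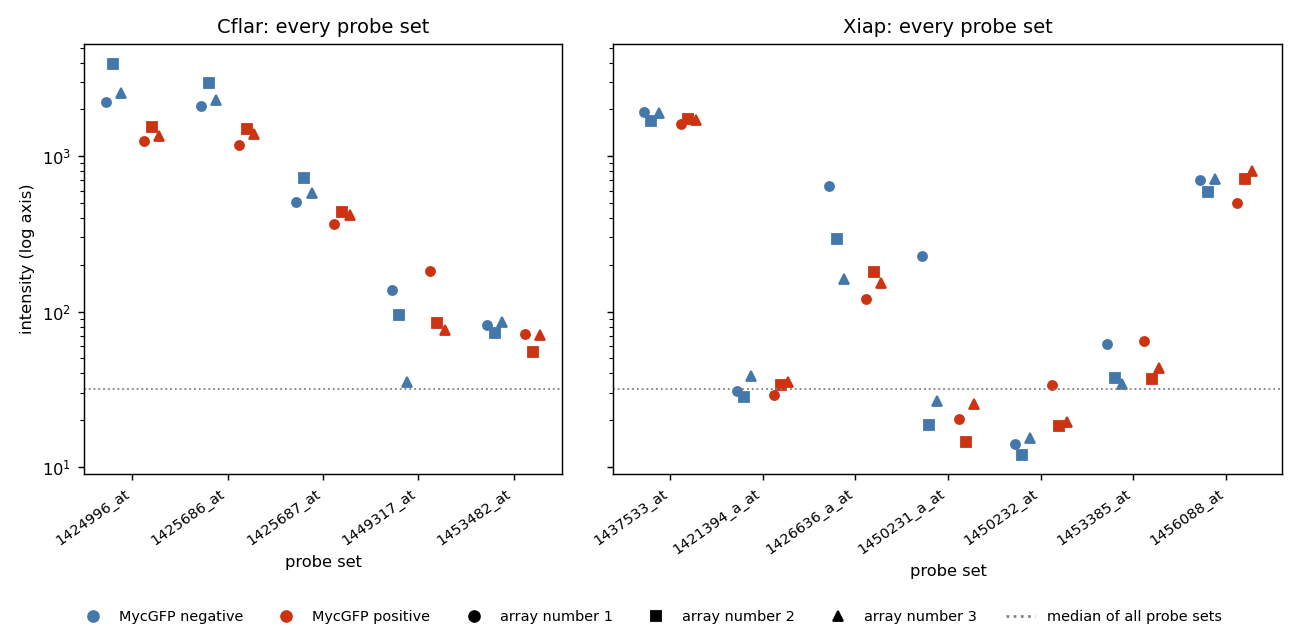
Intensity (log axis) of the 5 Cflar and 7 Xiap probe sets on each array, MycGFP negative in blue and positive in red, with symbols for the array number and a dotted line at the median of all probe sets. The 3 bright Cflar probe sets separate the groups with the arrays numbered 2 on top, and in Xiap negative array 1 stands apart in 1426636_a_at (647) and 1450231_a_at (226).

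By difference, the 8 genes ran from Fas (-2.33) through Tnfrsf1a (-1.06), Cflar (-1.04), Tnfrsf1b (-0.48), Fasl (-0.16), Xiap (-0.11) and Fadd (0.08) to Casp8 (0.20). The interval of Fas, which ends at -1.52, lies wholly below that of Tnfrsf1a, which starts at -1.45, and overlaps that of Cflar, which starts at -1.62; differences between genes were not tested. From Tnfrsf1b to Casp8 all intervals include 0. The genes whose pattern over the 6 arrays was most like that of Fas, by the root mean square distance of log2 values centred per gene, were Ntrk3, a neurotrophin receptor gene, at 0.19, Mylip, a ubiquitin ligase gene, at 0.20, and Lsp1, a leukocyte cytoskeletal gene, at 0.24. Ntrk3 read 130.2, 149.7 and 109.7 on the negative and 35.9, 18.3 and 27.7 on the positive arrays, the last 2 below the median.

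The wider pathway was read through 63 genes in 5 lists, of which 58 were measured, each by its brightest probe set. Of these, 4 rose and 2 fell, where 6.51% of all genes were called in either direction, 4.88% higher and 1.63% lower. The median log2 difference was 0.05 over the 58 and 0.01 over all genes.

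Among 10 other ligands and receptors, Ltb alone passed, lower, and the median difference was -0.01. Ltb, which encodes lymphotoxin beta, a membrane ligand of the TNF family, read 796, 404 and 785 on the negative and 255, 163 and 182 on the positive arrays. It fell 3.22-fold, at a log2 difference of -1.69 ± 0.32 (SE; limma, adjusted p = 0.036). The call was lost without any one array other than negative array 2, at adjusted p of 0.0678 to 0.12. On all 6 arrays it was also lost with log2(value + 16) (limma, adjusted p = 0.0522). The ligand genes Tnf and Lta stayed below the array median on most or all arrays, and neither was called. Tnfrsf21, which encodes death receptor 6 and was picked after its values were seen, read 12.5, 77.5 and 38.7 against 149, 190.1 and 455, at a log2 difference of 2.81 that did not pass (limma, adjusted p = 0.0781).

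Of 21 measured adaptors, ubiquitin enzymes and kinases of the receptor complexes, Ripk3 rose and Tnip1 fell, at a median of -0.13 for the list. Ripk3, the kinase of necroptosis, which caspase 8 restrains, read 336, 281 and 281 on the negative and 560.4, 531 and 554 on the positive arrays. It rose 1.84-fold, at a log2 difference of 0.88 ± 0.13 (SE; limma, adjusted p = 0.0221). Tnip1, which works with A20 to limit NF-kB signalling from TNF receptor 1, read 608, 577 and 711 against 209.9, 249.7 and 237. It fell 2.72-fold, at -1.44 ± 0.15 (SE; limma, adjusted p = 0.0118). The call of Tnip1 was lost without positive array 2 (adjusted p = 0.0589), and that of Ripk3 without negative array 2 or any positive array, at 0.0669 to 0.0819, and with a trended and robust variance (0.0508).

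Of the 8 measured NF-kB subunits and inhibitors none was called, and the median was about 0. The unadjusted limma p was under 0.05 for 3 of the 8, beside 3973 of all 18193 genes. Nfkbiz, an inducible nuclear NF-kB cofactor, read 1513, 1088 and 881 against 619, 279.9 and 501, at a log2 difference of -1.35 (limma, adjusted p = 0.0746), and its dimmer probe sets gave -0.32 and -0.52. Relb, a subunit of the noncanonical pathway, had a difference of 0.62 at levels around the array median (limma, adjusted p = 0.215).

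Of 7 other caspase genes none was called, and the median difference was -0.21. For 2 of the 7 the unadjusted limma p was under 0.05, beside 3973 of all 18193 genes. Casp6, an effector caspase gene, read 341, 373 and 457 against 238, 268 and 338 by its brighter probe set, at -0.48 (limma, adjusted p = 0.212). Its other probe set, 1458715_at, read 238, 208 and 244 against 49.6, 54.2 and 99.6 and was called, at a log2 difference of -1.83 ± 0.28 (SE; adjusted p = 0.0224), and the mean of both was called too, at -1.15 (adjusted p = 0.0319). Casp1, the caspase that matures interleukin 1 beta, was dim, at 29.0 to 50.7 on the negative and 35.03 to 165 on the positive arrays, with a difference of 0.92 that did not pass (limma, adjusted p = 0.422).

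Of the 12 genes of the mitochondrial arm, the apoptosome and caspase substrates, 3 rose and none fell, at a median of 0.48. Cycs encodes cytochrome c, which carries electrons in respiration and assembles the apoptosome once released, and it read 2618, 1788 and 1857 on the negative and 4748, 4569 and 4332 on the positive arrays. It rose 2.21-fold (log2 difference 1.15, SE 0.18; limma, adjusted p = 0.0244), and 1422484_at rose 2.23-fold. Of its other probe sets, the bright 1456071_a_at was 1.89-fold higher without passing (limma, adjusted p = 0.0629), and 1445484_at lay below the median on every array (adjusted p = 0.553). Bid, the substrate that links caspase 8 to mitochondria, read 644, 791 and 576 against 1270, 1439 and 1065 and rose 1.88-fold (limma, adjusted p = 0.042). The dim 1447873_x_at of Bid was called as well, at 0.95 (adjusted p = 0.036), and 1448560_at was not, at 0.64 (adjusted p = 0.0816). With the block Htra2, a mitochondrial protease gene whose product binds XIAP, was called too, at a log2 difference of 1.60 (limma, adjusted p = 0.0294, and 0.118 without the block).

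Parp1, a DNA repair enzyme gene whose product caspases cut, read 2167, 1638 and 1955 against 3069, 3822 and 4319 and rose 1.94-fold (limma, adjusted p = 0.0385, and 0.0635 with the array number as a block, where it was not called), and 2 other probe sets of it rose 2.72-fold and 2.90-fold. The remaining one, 1443573_at, above the median on all 6 arrays, overlapped between groups at a log2 difference of 0.08 (95% interval -0.37 to 0.54; limma, adjusted p = 0.859). The calls of Bid and Parp1 were lost without any one of the 6 arrays, at adjusted p of 0.0729 to 0.133 and 0.0517 to 0.126. That of Cycs was lost without any one array but negative array 1, at 0.0545 to 0.0897. Bid also lost its call when arrays were centred on their medians (adjusted p = 0.0501) and with a trended and robust variance (0.0534).

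**Figure D4:**
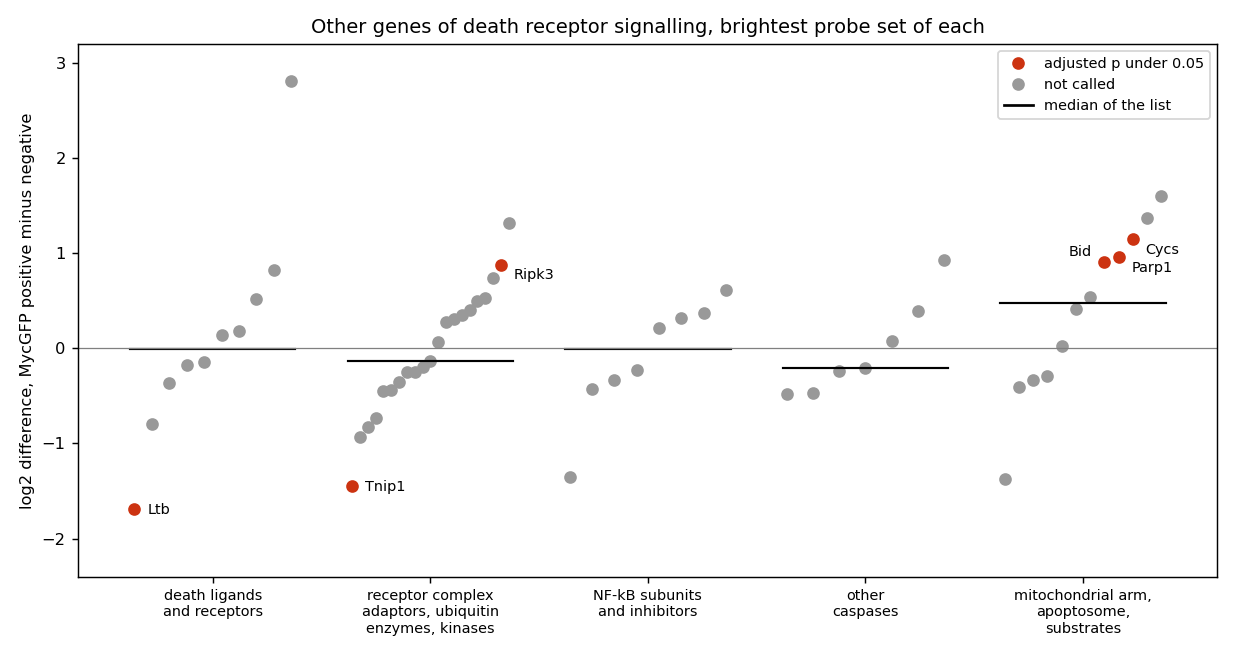
Log2 difference, MycGFP positive minus negative, of the 58 other measured genes of the pathway in 5 lists, each by its brightest probe set; red points have an adjusted p under 0.05 and black lines are list medians. Ltb (-1.69) and Tnip1 (-1.44) fell, Ripk3 (0.88), Bid (0.91), Parp1 (0.96) and Cycs (1.15) rose, and the highest point, which did not pass, is Tnfrsf21 at 2.81.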

How the data were processed

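RNA of 6 sorted samples, 5 ng each, was amplified with the Ovation system and biotin labelled, per the labels' protocols; amplifying so little RNA adds noise to dim probe sets. The deposited values were intensities, which the authors summarised with RMA per the submitters' processing notes, its version being not given in the sources used here. They were checked to be linear (all above 0, maxima of 18767 to 19948 without controls), so log2 was taken. RMA scales arrays to each other, so a change in total RNA is not visible.

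Of 45101 probe sets, the 64 controls, 932 with several gene symbols and 9160 with none were left out, leaving 34945, of which 34741 were matched by Entrez identifier to RefSeq symbols (GRCm38.p6). A gene was read by its brightest probe set, the one with the highest mean log2 value over all 6 arrays. Groups and numbers came from the sample titles. Limma 3.58.1 in R 4.3.3 (lmFit, eBayes, 2 groups, no covariate) was fitted to all 34945 probe sets with Benjamini-Hochberg adjustment and had 4 residual and 2.24 prior degrees of freedom; it was tested on simulated data. An exact permutation test of 3 against 3 arrays cannot go below p = 0.1 and was not used for calls. Intervals use limma's moderated SE, and folds are antilogs of log2 differences. The number of arrays limits the precision, and p-values measure only the spread between these sorted samples.

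The members and gene lists were chosen with earlier results of these data known. Named were all members, Myc, up to 4 called genes per list (else the 2 largest differences), and the 3 genes most like the member with the largest difference. Deviations from the group means correlated across probe sets at 0.34, 0.18 and 0.34 for arrays of the same number. For arrays of different numbers they correlated at -0.28 to -0.01. No label says that a number marks 1 leukaemia, so the main fit and its calls leave the numbers out. The numbers served for the same-number differences and as a block in an alternative fit. Alternatives were this block, each array left out, 1 probe set or the mean of all per gene, and all probe sets. Others left out suffixed probe sets (names ending in _s_at, _x_at or _a_at) or dim ones. The rest were centred arrays, log2(value + 16), a trended and robust variance, and array weights.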

Additional observations from a re-analysis of the deposited data

How the results depend on the processing

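All 17 alternatives were computed, 16 planned and 1 added after the data were seen, and the cause of each change was not tested unless the alternative itself tests fewer genes or arrays. Fas and Tnfrsf1a kept their direction under all of them and their calls under all that use the 6 arrays. Leaving arrays out gave log2 differences of -2.60 to -1.99 for Fas, -1.19 to -0.93 for Tnfrsf1a and -0.95 to -0.71 for Cflar 1425686_at. This Cflar probe set also lost its call when suffixed probe sets were left out (-0.85, limma, adjusted p = 0.0511). The brightest Cflar probe set, 1424996_at, was called with the array number as a replicate block (-1.04), with a trended and robust variance (-1.04), without dim probe sets (-1.04), with array weights (-1.06) and with centred arrays (-1.10). The block called 1891 probe sets higher and 900 lower. Of 137 probe sets of the members, lists and named genes it changed 7 calls: it lost Parp1 and added Cflar 1424996_at, Htra2 and the markers Klrd1, Pecam1, Cd79b and S100a9.

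Some differences near 0 changed sign. Fasl 1449235_at ran from -0.321 to 0.0384 with arrays left out, Tnfrsf1b 1448951_at from -0.0675 to 0.10, Xiap 1421394_a_at from -0.11 to 0.14, Xiap 1456088_at from -0.16 to 0.19, Xiap 1453385_at from -0.10 to 0.40 and Cflar 1449317_at from -0.11 to 0.86. Array weights gave -0.0287 for Tnfrsf1b 1448951_at and 0.12 for Xiap 1456088_at, and centring gave -0.0578 for the former and -0.0534 for Xiap 1421394_a_at.

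The number of probe sets called higher was 840 with 1 probe set per gene and 1017 with the mean of a gene's probe sets. It was 1073 without suffixed ones and 0 to 1625 with arrays left out. The number called lower was 275, 393 and, with all probe sets but controls, 1261, and 0 to 665 with arrays left out. With arrays left out, limma called 0 to 2 member genes lower, 0 to 3 pathway genes higher and 0 to 2 lower. Pathway genes called higher were 2 with a trended variance and 2 without suffixed probe sets. Those called lower were 1 without suffixed probe sets, 1 with log2(value + 16) and 4 with the mean of probe sets. Leaving out suffixed probe sets removes Cycs 1422483_a_at, Parp1 1435368_a_at and Tnip1 1427689_a_at themselves, so their calls were not tested there. With 3 arrays a group, probe sets near the array medians of 30.5 to 32.7, as those of Fasl, allow no statement on small changes.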
